A study of Mus musculus with 22 samples.

Results

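The complement system is a set of plasma and membrane proteins that tags microbes, dying cells and immune complexes for removal. In the classical pathway C1q binds the target, the proteases C1r and C1s are activated, and C4 and then C3 are cleaved. In the alternative pathway factor B joins deposited C3b to form a convertase that properdin holds together. Most circulating complement protein is made by the liver, whereas C1q is known mainly as a product of macrophages and related myeloid cells, and properdin as a product of leukocytes. The 9 genes described here are C1qa, C1qb and C1qc (the 3 chains of C1q), C1ra and C1s1 (the C1r and C1s proteases), C4b, C3, Cfb (factor B) and Cfp (properdin). They were chosen by name from the 31053 genes of the count matrices, and another 33 complement genes (lectins, terminal components, regulators and receptors) were listed beside them.

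The libraries came from mice that carried the tamoxifen-inducible recombinase Prom1-CreERT2 and the Rosa26ZSG reporter, so that ZsGreen marked cells whose ancestors expressed Prom1, a gene of stem and progenitor cells in many epithelia. Mice labelled Nalcn-wt had these alleles alone, whereas those labelled Nalcn-het or Nalcn-null also carried 1 or 2 conditional alleles of Nalcn, the sodium leak channel gene, recombined only in the Prom1 lineage. The study asked how loss of Nalcn changes the release of cells from solid organs into blood. There were 10 libraries of ZSG+ cells sorted from peripheral blood of mice without tumors (ntCZC; 2 wt, 4 het, 4 null, aged 551 to 649 days), 9 of pooled organs (tissue; 5 wt, 2 het, 2 null, aged 551 to 654 days) and 1 wt library of peripheral blood mononuclear cells (PBMC; male, 120 days), from males and females.

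The sort decided which cells entered the ntCZC libraries, and each tissue library was a pool of lung, liver, kidney, stomach and either epididymis or uterus. The hashtags that told these organs apart were not used, so the organ of a barcode is not known here. Libraries held 50 to 27857 barcodes and 161541 to 139793927 unique molecular identifiers (UMIs, each a captured transcript). The labels named no animals, so n counts libraries and p-values measure the spread between libraries. Another 2 tissue libraries had titles and strain entries that named different genotypes and entered no group. Tissue null replicate 3 was labelled female with uterus, but 699 of its barcodes (3.39%) fell in the epididymal epithelial-like gate, and its title lacked a genotype, which was taken from the strain entry. Some cell barcode sequences recurred between libraries (127 of 231 pairs, at most 2.60% of the smaller library). Nalcn itself had 0 UMIs in all 10 ntCZC libraries and in PBMC. In tissue it had 39 UMIs over 5 wt libraries (0 to 0.204 CPM, UMIs of the gene per 1000000 UMIs of the library), 11 over 2 het libraries (0.104 to 0.158) and 24 over 2 null libraries (0.272 to 0.386), so these 3′ tags did not check the genotype labels.

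Cell classes were built from marker genes, none of which was a complement gene. Of 179929 barcodes, 95843 had 200 or more genes and 25% or less mitochondrial UMIs. A barcode entered 1 of 29 classes when at least 2 markers of that class lay at 3 or more times their mean tissue level. This placed 56878 barcodes, left 30074 with no class, and left out 8891 that met gates of several compartments, as possible doublets. In 28 of 29 classes all 3 markers kept out of the gate were at least 2-fold over the other classes' unweighted mean in tissue. The exception was the macrophage-like class, in which Pf4 reached 1.28-fold. A level is given in CPM, the UMIs of a gene per 1000000 of the UMIs of all genes in the summed barcodes of a library, and the mean ± SD is over libraries with at least 20 barcodes of the class. Because 3′ UMIs of different genes were not set on a common scale of RNA amount per cell, levels were compared within a gene only. A share is the percentage of barcodes with at least 1 UMI, given with an exact 95% Clopper-Pearson interval that covers counting error only, and a thinned share is the value expected at 1000 UMIs per barcode.

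The genes lay in 3 groups and 2 single positions in the mm10 annotation. C1qa, C1qc and C1qb stood in a row on the minus strand of chromosome 4 (C1qa at chr4:136895917-136898803), with gaps of 2851 and 3616 bases. C1ra (chr6:124512405-124523443, plus strand) and C1s1 (chr6:124530345-124542359, minus strand) were 6901 bases apart on chromosome 6. C4b (chr17:34728380-34743882) and Cfb (chr17:34856374-34862518) were 112491 bases apart on chromosome 17, which also carried C3 (chr17:57203970-57228136), and Cfp was on the X chromosome (chrX:20925454-20931555). Near copies added little to the tissue counts, with 0 UMIs for C4a, 9 for C1rb and 64 for C1s2. Their reads can still be split or lost between copies in the counting.

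RefSeq promoter entries (GRCm38.p6) were found for 6 of the 9 genes. The 4 printed here belong to genes with unlike cell sources, the first and last to macrophage-rich genes and the others to genes highest in fibroblast-like and mesothelial-like barcodes. Each is the 250 bases before the transcription start, written 5′ to 3′ on the minus strand of the genome, and capitals mark matches to TTNNGNAA (a pair of C/EBP half-sites) on either strand. The windows are chr4:136886201-136886450 for C1qb, chr6:124542360-124542609 for C1s1, chr17:57228137-57228386 for C3 and chrX:20931556-20931805 for Cfp.
C1qb: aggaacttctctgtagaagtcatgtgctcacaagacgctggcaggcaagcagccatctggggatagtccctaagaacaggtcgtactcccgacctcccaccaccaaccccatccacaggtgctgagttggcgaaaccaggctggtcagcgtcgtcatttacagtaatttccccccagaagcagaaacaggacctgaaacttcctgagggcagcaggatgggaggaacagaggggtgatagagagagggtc
C1s1: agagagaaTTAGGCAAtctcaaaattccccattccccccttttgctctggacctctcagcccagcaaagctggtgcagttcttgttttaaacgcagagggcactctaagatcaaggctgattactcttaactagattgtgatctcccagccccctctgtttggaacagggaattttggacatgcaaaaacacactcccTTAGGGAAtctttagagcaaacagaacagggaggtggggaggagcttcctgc
C3: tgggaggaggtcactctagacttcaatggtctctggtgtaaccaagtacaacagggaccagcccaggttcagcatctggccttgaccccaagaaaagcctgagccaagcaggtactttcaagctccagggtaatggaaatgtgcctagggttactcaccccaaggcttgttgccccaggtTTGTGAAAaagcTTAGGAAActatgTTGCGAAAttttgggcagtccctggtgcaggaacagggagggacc
Cfp: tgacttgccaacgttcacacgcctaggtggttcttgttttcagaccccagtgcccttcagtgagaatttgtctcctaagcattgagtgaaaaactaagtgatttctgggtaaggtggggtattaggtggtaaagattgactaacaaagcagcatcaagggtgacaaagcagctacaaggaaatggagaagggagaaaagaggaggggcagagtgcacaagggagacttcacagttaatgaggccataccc
The C3 window held 3 such matches, at -70 to -63, -58 to -51 and -45 to -38 from the start, and none overlapped another. Of 32851 RefSeq promoters of the same length 36.8% held at least 1 match and 2.61% held 3 or more. The printed C1s1 window held 2 matches (a second C1s1 entry held 1), and the C1qb and Cfp windows held 0. Of the genes not printed, C1ra held 2 matches, and C1qc, another macrophage-rich gene, held 1 (at -81 to -74). The PU.1 core GAGGAAG, searched on both strands and present in 10.6% of promoters, was found only in C1qc (at -194 to -188) among the 6 matched genes. The interferon-stimulated response element (2.98% of promoters) and the STAT dimer TTCNNNGAA (7.02%) had 0 matches in the 6.

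C1q, the recognition part of the classical pathway, was concentrated in macrophage classes in the organs. In macrophage-like barcodes (2453 barcodes, median 3471 UMIs) C1qa was at 2228 ± 779 CPM (SD, n = 9), C1qb at 2212 ± 703 and C1qc at 1461 ± 505. In the Kupffer-like class, named for the resident macrophages of the liver (138 barcodes, median 1764 UMIs), C1qa was at 3228 ± 332 CPM (SD, n = 2). C1qa by library was 2957, 1252, 1609, 2281 and 3335 CPM in macrophage-like barcodes of tissue wt replicates 1 to 5, 3045 and 2508 in het, and 1387 and 1677 in null, and 2993 and 3462 in the Kupffer-like barcodes of tissue wt replicates 1 and 3. These 2 leading classes overlapped, and so did their C1qb and C1qc levels. The next class for each chain was hepatocyte-like, whose C1qa reached at most 428 CPM in any of 5 libraries, under the lowest macrophage-like library.

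Shares of positive barcodes followed the levels. C1qa had a UMI in 71.1% of macrophage-like barcodes (CI 69.2 to 72.8, thinned 59.9%) and in 93.5% of Kupffer-like barcodes (CI 88.0 to 97.0, thinned 86.6%). T cell-like barcodes of the same libraries, which should lack the gene, had it in 5.10% (median 1853 UMIs, thinned 3.07%), and alveolar macrophage-like barcodes in 4.76% (median 3995 UMIs, thinned 1.73%). The alveolar macrophage-like class (5551 barcodes) was at 27.4 CPM of C1qa, within the T cell-like range of 5.65 to 143 CPM, so at this depth no C1qa above that background was seen there.

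The 3 chains were found together. In the tissue libraries 66.7% of 2613 barcodes in the macrophage, Kupffer and peritoneal macrophage gates (the resident macrophage gates, a sum added after the data had been seen) had UMIs of all 3, and 20.5% had none. The share with all 3 ran from 41.3% (tissue null replicate 2) to 90.7% (tissue wt replicate 5) over the 9 libraries. Of 4878 T cell-like barcodes 2.32% had all 3, and of 5551 alveolar macrophage-like barcodes 1.68% did. Across the 29 classes, as a description, Pearson's r of log2(CPM + 1) between the chains was 0.956 to 0.981, and the classes shared libraries and background RNA. The non-member genes most like C1qa by the same measure were Wfdc17 (r = 0.85), Kcnk13 and Vsig4, the last coding for a complement receptor of macrophages.

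**Figure D1:**
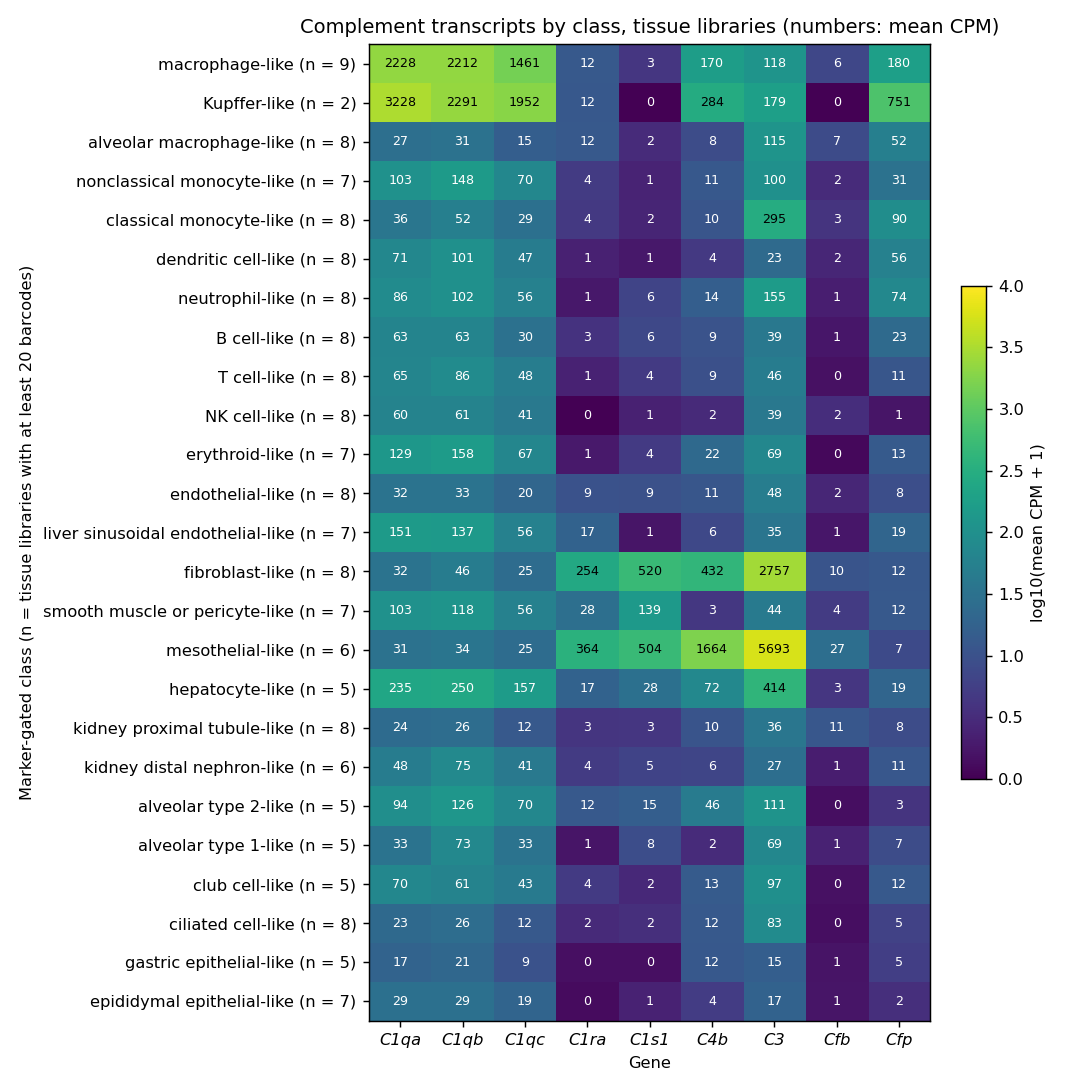
Mean level of the 9 genes (columns) in 25 marker-gated classes of the tissue libraries (rows), as CPM of summed barcodes averaged over libraries with at least 20 barcodes of the class, with colour on a log scale. C1qa, C1qb and C1qc were highest in the Kupffer-like and macrophage-like rows, and C1ra, C1s1, C4b and C3 in the mesothelial-like and fibroblast-like rows.

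Macrophage-like and nonclassical monocyte-like barcodes were compared within the 7 tissue libraries that had at least 20 of each, by the edgeR quasi-likelihood test with library as block and Benjamini-Hochberg adjustment over all 6016 genes tested. Nonclassical monocytes patrol the vessel wall and share a lineage with many macrophages. Of the 6 members tested, 5 were higher in macrophage-like barcodes and 0 were lower. Among all genes 38.4% were called, 19.3% higher and 19% lower. Genes with low counts in both classes were left out by a filter before testing. C1qa, C1qc and C4b did not pass that filter where only nonclassical monocyte-like barcodes were compared between ntCZC and tissue. A gene that passes through 1 class only is likely to come out higher there. The counts of directions are therefore not independent of the filter. C1qa was at 2190 ± 697 against 103 ± 97.5 CPM (SD, n = 7; log2 fold change 4.61, SE 0.47, edgeR adjusted p = 1.73e-06). C1qb (4.22, adjusted p = 6.34e-07) and C1qc (4.53, adjusted p = 5.83e-06) differed to a similar extent. The monocyte values of C1qa were 58.9, 229, 140 and 232 CPM in tissue wt replicates 1 to 4, 24.3 and 0 in het and 36.9 in null replicate 3. All lay below every macrophage-like library. C4b was also higher (48.5 against 11.4 CPM, log2 fold change 2.16, edgeR adjusted p = 6.54e-05), although its ranges overlapped, as was Cfp (118 against 31.1 CPM, 1.87, adjusted p = 1.95e-05), whose ranges did not. C3 was not distinguished (113 against 100 CPM, log2 fold change -0.16, edgeR adjusted p = 0.721), and the sign of this difference turned to 0.16 without the library block, to 0.02 without the barcodes with the most UMIs and to 0.14 without tissue het replicate 1. C1ra, C1s1 and Cfb were too low to be tested. Of 9 other complement genes tested 4 were higher, among them C3ar1, the C3a receptor (4.09 on the log2 scale), and C5ar1, the C5a receptor (0.60), and 4 were lower, among them Itgam and Itgb2, the chains of complement receptor 3 (-1.44 and -1.03), and Clu, clusterin (-0.75). The call of C5ar1 was lost without tissue het replicate 1, null replicate 3, wt replicate 3 or wt replicate 4, and that of Clu without tissue wt replicate 2 or null replicate 3, by DESeq2 (-0.68, adjusted p = 0.0547) and without the library block (-0.76, edgeR adjusted p = 0.264).

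C1ra and C1s1, the proteases that C1q carries, were found in stromal classes. C1ra was at 364 ± 130 CPM (SD, n = 6) in mesothelial-like barcodes (326 barcodes, median 2948 UMIs), from the lining of the body cavities and organs, and at 254 ± 73.0 (SD, n = 8) in fibroblast-like barcodes (1503 barcodes, median 1999 UMIs). C1s1 was at 504 ± 137 CPM (SD, n = 6) and 520 ± 95.04 (SD, n = 8) in the same classes. By library C1s1 in fibroblast-like barcodes was 577, 356, 438 and 559 CPM in tissue wt replicates 1 to 4, 565 and 665 in het, and 478 and 521 in null. The mesothelial-like and fibroblast-like ranges of each gene overlapped. Smooth muscle or pericyte-like barcodes were next for C1s1, at 139 ± 45.3 CPM (SD, n = 7), between 87.1 and 200 CPM, below every fibroblast-like library. C1s1 had a UMI in 60.2% of fibroblast-like barcodes (CI 57.7 to 62.7, thinned 38.5%), 68.1% of mesothelial-like barcodes (thinned 40.8%) and 0.574% of T cell-like barcodes (thinned 0.277%). For C1ra these shares were 38.7%, 56.4% and 0.431% (thinned 20.9%, 30.0% and 0.178%). In the resident macrophage gates C1ra reached 24.0 CPM in the highest of 9 libraries. Barcodes outside the limits, which no class could take, held 24.4% of the tissue UMIs of C1ra and 23.9% of those of C1s1.

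C4b and C3, the components that are cleaved and deposited on targets, peaked in the same stromal classes. C4b was at 1664 ± 525.9 CPM (SD, n = 6) in mesothelial-like and 432 ± 124 (SD, n = 8) in fibroblast-like barcodes. The lowest mesothelial-like library (982 CPM, tissue wt replicate 4) was above the highest fibroblast-like library (614 CPM, tissue wt replicate 1). C3 was at 5693 ± 1713 CPM (SD, n = 6) in mesothelial-like barcodes, with 3712, 6275 and 5556 in tissue wt replicates 2 to 4, 8340 in het replicate 1, and 3961 and 6315 in null. In fibroblast-like barcodes C3 was at 2757 ± 973 CPM (SD, n = 8), from 1414 to 4579, so that these neighbours overlapped. C3 had a UMI in 93.3% of mesothelial-like (CI 90.0 to 95.7, thinned 90.5%), 78.6% of fibroblast-like (thinned 69.3%) and 6.23% of T cell-like barcodes (thinned 3.05%). Below these came hepatocyte-like barcodes (414 ± 299 CPM, SD, n = 5) and classical monocyte-like barcodes (295 ± 48.8 CPM, SD, n = 8), which overlapped each other. The hepatocyte-like class held only 355 barcodes, and its 7 markers summed to 2332 to 17650 CPM there. How fully these barcodes stand for the hepatocytes of the liver was not tested, so their C3 level is no measure of the liver's C3. Classical monocytes are the inflammatory monocytes of blood, and 56.4% of their barcodes had a C3 UMI (median 3340 UMIs, thinned 25.2%). C4b was also found in macrophage-like barcodes, at 19.0 to 127 CPM in 8 tissue libraries and 1108 CPM in tissue wt replicate 5.

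Fibroblast-like and endothelial-like barcodes were compared in the same way in 8 tissue libraries. Of 7 members tested 4 were higher in fibroblast-like barcodes and 0 were lower. Among all 9430 genes 44.9% were called, 23% higher and 21.9% lower. These counts, too, are not independent of the filter on low counts. C1ra was at 254 ± 73.0 against 9.35 ± 2.75 CPM (SD, n = 8; log2 fold change 4.96, SE 0.15, edgeR adjusted p = 5.19e-14). C1s1 was at 520 ± 95.04 against 8.87 ± 3.67 CPM (6.19, edgeR adjusted p = 5.19e-14). C4b and C3 had log2 fold changes of 5.67 (edgeR adjusted p = 1.28e-12) and 6.20 (adjusted p = 8.70e-12). The classes did not overlap for these genes, but the share of all genes without overlap was not counted. The C1q chains were not called, with C1qa at 32.3 against 32.03 CPM, both within the T cell-like range. Under a gate that asked for 3 markers all 3 chains were called higher in fibroblast-like barcodes (C1qa by 0.74, edgeR adjusted p = 0.00979; C1qb 0.69, adjusted p = 0.037; C1qc 0.78, adjusted p = 0.0257), where 3914 of 8751 genes were called. Without tissue het replicate 1 C1qb (0.82, edgeR adjusted p = 0.0168) and C1qc (0.74, adjusted p = 0.0237) were called too. Of 11 other complement genes tested 7 were higher, led by Serping1, the C1 inhibitor (5.75 on the log2 scale), and C2, the partner of C4 in the C3 convertase (4.95), and 2 were lower, Cd59a, a blocker of the membrane attack complex (-1.63), and Cr1l (Crry), a regulator of C3 convertases (-0.75).

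**Figure D2:**
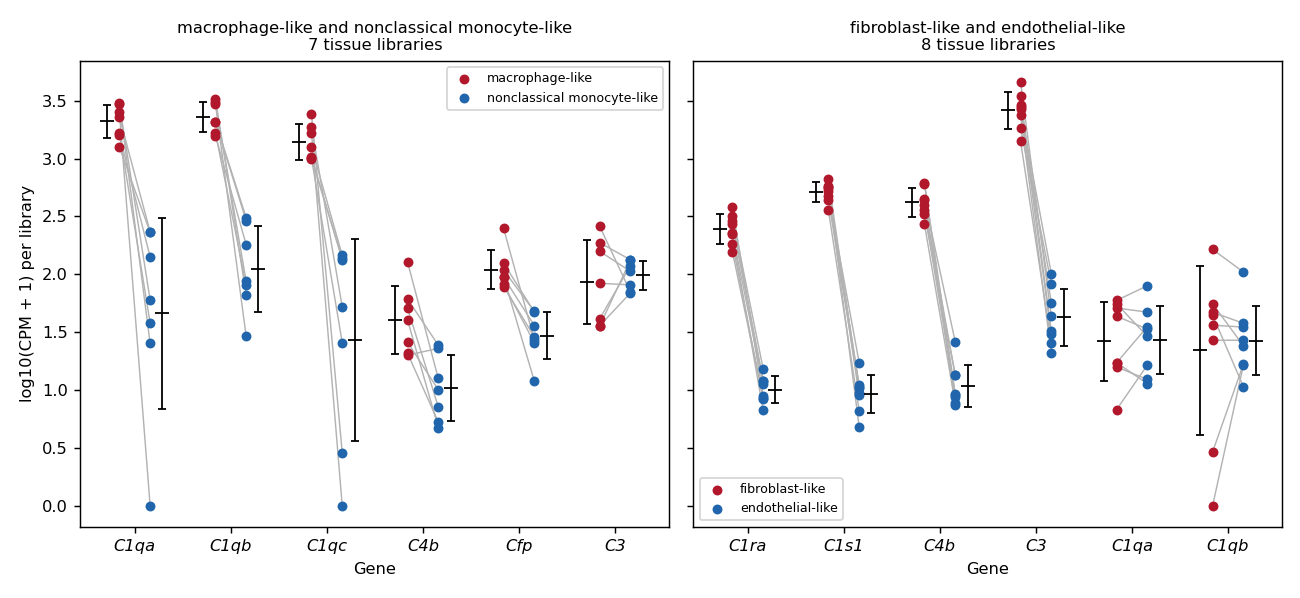
Levels of the members in pairs of classes from the same tissue libraries, as log10(CPM + 1), with a line per library and the mean ± SD, for macrophage-like against nonclassical monocyte-like barcodes (7 libraries) and fibroblast-like against endothelial-like barcodes (8 libraries). C1qa, C1qb and C1qc stood apart in the first pair, and C1ra, C1s1, C4b and C3 in the second.

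Hepatocyte-like and kidney proximal tubule-like barcodes gave an epithelial comparison in 5 libraries. All 3 members tested were higher in hepatocyte-like barcodes, where 38.5% of 3027 genes were called, 18.3% higher and 20.2% lower. Only these 3 passed the filter on low counts, and as above their shared direction is not independent of it. C3 was at 157 and 761 CPM in tissue het replicates 1 and 2, 224 and 210 in null and 719 in wt replicate 3, against a mean of 36.6 CPM in tubule barcodes (log2 fold change 3.45, edgeR adjusted p = 0.000335), with no overlap. C1qa (235 against 24.6 CPM, log2 fold change 3.50, edgeR adjusted p = 7.35e-05) and C1qb (250 against 25.5 CPM, 3.54, adjusted p = 0.000488) overlapped between the classes. The list of 7 macrophage markers was detected in full in the hepatocyte-like barcodes and summed to 110 to 398 CPM there against 65.2 to 116 in tubule barcodes. The 7 Kupffer markers summed to 141 to 328 CPM (Cd5l at 0) against 62.5 to 163 (Clec4f at 0). The 7 fibroblast markers summed to 50.3 to 684 CPM in hepatocyte-like and 2.09 to 227 CPM in tubule barcodes. The part of macrophage transcripts in the C1q difference and of fibroblast transcripts in the C3 difference was not tested. Of the other complement genes only Clu could be tested and it was higher in hepatocyte-like barcodes (3.80 on the log2 scale).

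The alternative pathway genes differed from each other in source. Cfb was low in every tissue class, and 60.8% of its tissue UMIs lay in barcodes outside the limits, which no class could take. The alveolar macrophage gate held 12.8% and the mesothelial gate 1.85%. Among gated classes its highest mean was 27.1 ± 17.6 CPM (SD, n = 6) in mesothelial-like barcodes, with 52.6, 11.4 and 24.3 in tissue wt replicates 2 to 4, 21.5 in het replicate 1, and 8.80 and 43.9 in null. Kidney proximal tubule-like barcodes followed at 11.2 ± 7.52 CPM (SD, n = 8) and fibroblast-like barcodes at 9.79 ± 14.2, and these ranges all overlapped. Its share was 12.0% in mesothelial-like barcodes (thinned 2.96%) and 0.205% in T cell-like barcodes (thinned 0.0762%). Cfp followed the macrophages instead, at 751 ± 33.5 CPM (SD, n = 2; 775 and 727 in tissue wt replicates 1 and 3) in Kupffer-like barcodes and 180 ± 195 (SD, n = 9) in macrophage-like barcodes. Both Kupffer-like libraries were above every macrophage-like library, which ran from 77.2 CPM (tissue wt replicate 1) to 682 (wt replicate 5). Classical monocyte-like barcodes (90.0 ± 13.5 CPM, SD, n = 8) and neutrophil-like barcodes (73.9 ± 29.3, n = 8) overlapped with the macrophage-like class. Cfp had a UMI in 63.0% of Kupffer-like barcodes (CI 54.4 to 71.1, thinned 46.6%), 26.5% of macrophage-like barcodes (thinned 8.50%) and 2.60% of T cell-like barcodes (thinned 0.834%). Over the 29 classes Cfp was most like Wfdc17 (r = 0.89), Ly86 and Lrrc25, whereas C1s1 was most like Kcnt2 (r = 0.93), Olfr1034 and Opcml, C1ra most like Ccdc80 (0.81) and Fbln2, and C3 most like Medag (0.82), Wt1os and B830012L14Rik.

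Among the members themselves, 2 sets shared a pattern over the 29 classes. C1qb and Cfp had an r of 0.82, C1ra and C3 of 0.83, and C1ra and C1s1 of 0.79 on log2(CPM + 1). C4b was most like Igf1 (0.77), Shisa9 and Garnl3, and Cfb most like Cadm4 (0.76), Bloc1s1 and Afap1. C1qb was most like Wfdc17 (0.88), Kcnk13 and C3ar1, and C1qc most like Kcnk13 (0.89), Wfdc17 and Ccl24.

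The ntCZC and tissue libraries were then compared over all barcodes, which asks how much of each transcript the sorted blood cells held against whole organ pools. In such sums, fewer cells of a type and less RNA per cell cannot be told apart. By edgeR with sex as covariate, 5 of the 9 members were higher in ntCZC and 3 were lower, where 64.5% of 10681 genes were called, 28.5% higher and 36% lower. C1qa had a lowest, median and highest value of 0.769, 914 and 1956 CPM in 10 ntCZC libraries and of 97.9, 116 and 412 CPM in 9 tissue libraries (log2 fold change 2.08, SE 0.72, edgeR adjusted p = 0.0163). The kinds overlapped, with both wt libraries and het replicate 4 below the lowest tissue library and null replicate 2 (306 CPM) within the tissue range. C1qb (2.12, edgeR adjusted p = 0.00925), C1qc (2.42, adjusted p = 0.00626), C4b (2.50, adjusted p = 0.00467) and Cfp (3.09, adjusted p = 6.26e-05) were also higher, with overlap. Without ntCZC het replicate 1 the calls of C1qa (log2 fold change 1.56, adjusted p = 0.0702) and C1qb (1.58, adjusted p = 0.0543) were lost, and over only the barcodes with 200 or more genes and at most 20% mitochondrial UMIs that of C1qa was lost (1.64, edgeR adjusted p = 0.062).

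The proteases and C3 went the other way. C1s1 was almost missing from ntCZC, with 3 UMIs in 10 libraries and 0 in 7 of them, against 5.46, 13.8 and 26.8 CPM (lowest, median and highest) in tissue (log2 fold change -6.18, SE 0.54, edgeR adjusted p = 4.29e-09). No ntCZC library reached the lowest tissue library. C1ra was at 4.52 against 9.98 CPM (-1.48, edgeR adjusted p = 0.00392) and C3 at 76.5 against 134 CPM (-0.85, edgeR adjusted p = 0.00841), both with overlap. Cfb was not called (8.19 against 4.75 CPM, log2 fold change 0.72, edgeR adjusted p = 0.247), but was over the same restricted barcodes (1.33, edgeR adjusted p = 0.0392). Of 15 other complement genes tested 4 were higher, with Fcna, ficolin A (4.00), Itgam (2.74) and Itgb2 (2.29) leading, and 4 were lower, led by Serping1 (-7.44), Clu (-6.93) and Cd59a (-3.93). The summed fibroblast markers were at 0 in most ntCZC libraries (median 0, highest 12.4 CPM in wt replicate 3) and at 49.0 to 579 CPM in tissue, and the macrophage markers were at 290 to 3008 CPM in ntCZC and 237 to 740 CPM in tissue. Their part in these differences was not tested.

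**Figure D3:**
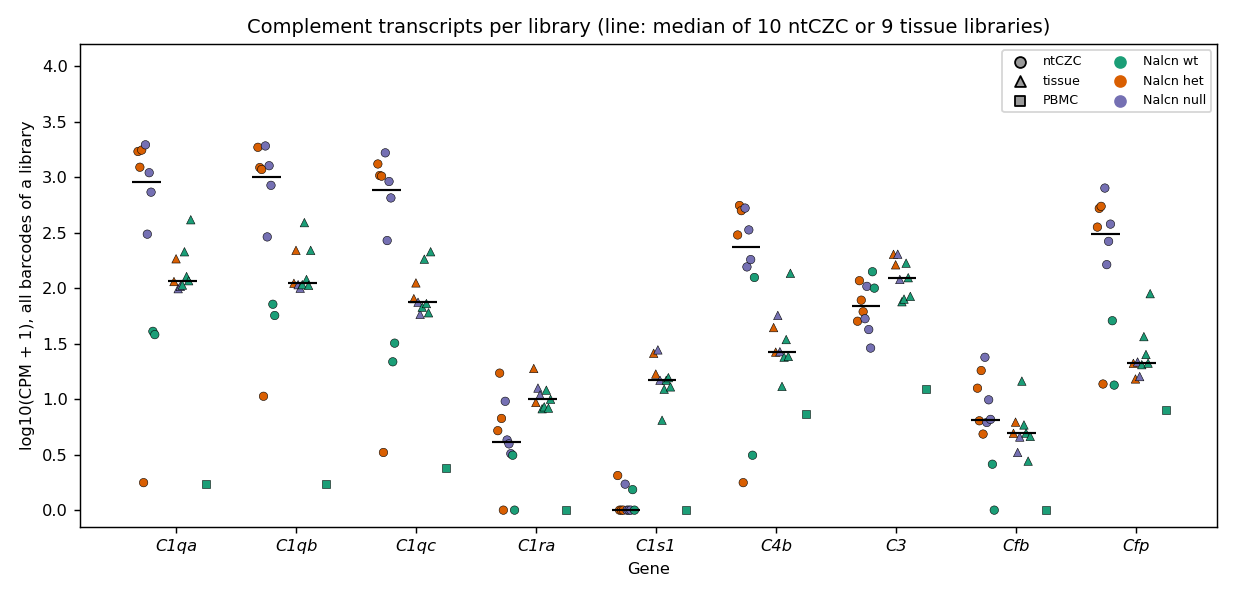
Level of each member in every ntCZC, tissue and PBMC library over all barcodes, as log10(CPM + 1), with a line at the median of each kind. C1s1 separated tissue from ntCZC, whereas C1qa in ntCZC ran from 0.769 to 1956 CPM.

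The high ntCZC levels came from few barcodes. Of 2501 ntCZC barcodes 125 (5.00%) had 10 or more C1qa UMIs and held 97.0% of all its UMIs, and in tissue 2083 of 143502 barcodes (1.45%) held 62.3%. The macrophage, Kupffer and peritoneal macrophage gates took in 152 ntCZC barcodes (median 12294.5 UMIs), and these held 94.0% of the C1qa UMIs, 90.2% of C1qb, 95.5% of C1qc, 87.6% of C4b and 84.0% of Cfp. They also held 77.1% of the 48 UMIs of C1ra, of which the fibroblast gate held 0. For C3 the monocyte, neutrophil and dendritic gates held 61.3%. In tissue the resident macrophage gates held 35.9% of C1qa, and another 26.9% was in barcodes that passed the limits but met no gate. Those with no UMI of any macrophage gate marker had 303 CPM of the 3 chains together, those with UMIs of 1 marker had 1894 and those with UMIs of 2 or more, too few of which reached the gate's 3-fold limit, had 2235, so the gates missed part of the C1q-positive barcodes.

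**Figure D4:**
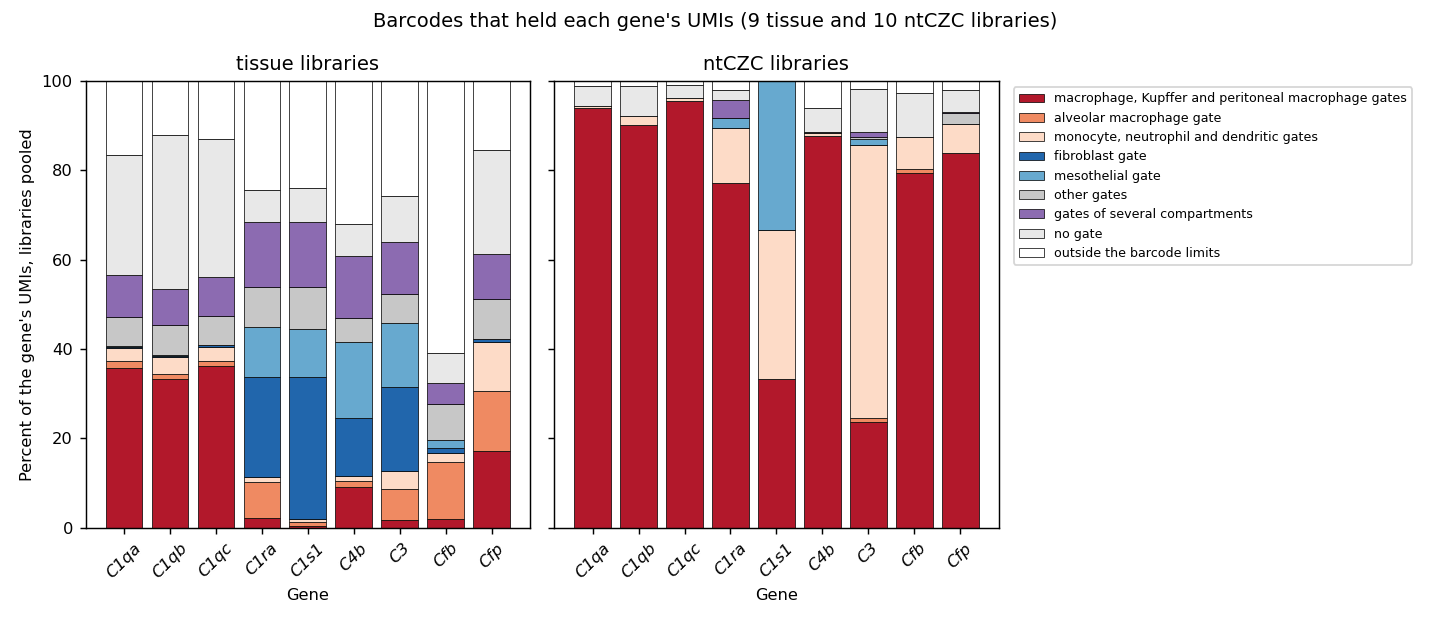
Percentage of each member's UMIs by the gate of the barcode, for 9 tissue and 10 ntCZC libraries, each bar adding to 100. In ntCZC the macrophage, Kupffer and peritoneal macrophage gates held 94.0% of C1qa and 87.6% of C4b, and in tissue they held 35.9% of C1qa.

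The 152 ntCZC barcodes in resident macrophage gates were not made up like those of tissue. In ntCZC 93 were in the peritoneal macrophage gate and 28 were macrophage-like, whereas of 2613 in tissue 22 were in the peritoneal gate and 2453 were macrophage-like, so the make-up of the gates and the level within a type cannot be told apart here. Their pooled levels were 5121 CPM for C1qa, 4613 for C1qb, 3957 for C1qc, 1340 for C4b, 1706 for Cfp and 47.0 for Cfb. Only null replicate 1 (43 barcodes) and het replicate 3 (54 barcodes) had at least 20 of them, so no test was made and the values stand side by side. Both were female and neither was wt, whereas the tissue libraries were of both sexes and all genotypes. Sex and genotype were thus not separated from kind. C1qa was at 5193 and 5613 CPM in these ntCZC libraries and at 1251 to 3335 in the 9 tissue libraries. C4b was at 1289 and 1470 CPM against 27.8 to 1108, Cfp at 2007 and 1648 against 99.1 to 682, and Cfb at 60.4 and 54.9 against 0 to 15.1. All of these lay above every tissue library, while C3 (84.1 and 210 CPM against 34.4 to 254) overlapped. How large a share of all genes lay above every tissue library was not counted, so the separation cannot be called particular to these genes. C4b had a UMI in 89.5% of these barcodes (thinned 66.0%) and Cfp in 92.8% (thinned 74.4%), against 2.31% and 0.769% of 130 ntCZC T cell-like barcodes (median 4689.5 UMIs). The same T cell-like barcodes had 0 C1qa UMIs, which by a limit of 3 barcodes allows a share of up to 2.31%. All 3 C1q chains were found in 85.5% of the 152.

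The other 31 ntCZC barcodes entered the Kupffer gate. The defining Kupffer marker Clec4f was at 0 in all 152, so they are not called Kupffer-like here. In the peritoneal gate Prg4 was at 6477 CPM and Cxcl13 at 4510 CPM, but both are gate markers, so the gate itself selected for them. The markers kept out of that gate were at 238 CPM (Garnl3), 456 CPM (Selp) and 345 CPM (Ltbp1). Over all resident macrophage gates together the 7 peritoneal markers, gate markers included, summed to 13800 CPM in null replicate 1. They summed to 7713 CPM in het replicate 3, against 7.04 to 1547 CPM in tissue. The highest tissue value was in wt replicate 5, whose 54 macrophage-like barcodes also had the highest tissue C4b (1108 CPM) and Cfp (682 CPM). The part of these markers in the levels was not tested. C1qb made up 33.7% of 25903 C1q UMIs in these ntCZC barcodes and 41.8% of 74126 in tissue, of which 70899 were in macrophage-like barcodes, while the tissue Kupffer-like barcodes were at 34.7%. These shares are given without a test.

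Resident macrophage gates took a share of barcodes that varied between ntCZC libraries, as did the C1q level. The share was 0.399% and 0 in wt replicates 1 and 3, 9.24%, 13.6%, 27.1% and 0.161% in het replicates 1 to 4, and 19.3%, 2.48%, 10% and 5.88% in null replicates 1 to 4. C1qa over all barcodes was 39.8 and 37.1 CPM in the wt libraries, 1703, 1228, 1753 and 0.769 in het, and 1956, 306, 1096 and 732 in null. The 3 libraries with the smallest shares were the 3 with the least C1qa. Of these, wt replicate 3 had a median of 325 UMIs per barcode, and only 11 of its 77 barcodes passed the limits (8 of them gated), so its share of 0 says little. Its platelet and hepatocyte marker sums (693 and 303 CPM) were the highest in ntCZC. Without it, wt replicate 1 and het replicate 4 had both the smallest shares and the least C1qa. Among the larger shares the order was not kept, as het replicate 3 had a larger share than null replicate 1 but less C1qa. The link was not tested. Counts behind the shares were small, at most 54 barcodes. Tissue libraries had 0.919% to 3.71% of barcodes in these gates and PBMC 0 of 752, which by a limit of 3 barcodes allows a share of up to 0.399%. PBMC had 1 UMI each of C1qa and C1qb, 2 of C1qc, 9 of C4b, 16 of C3, 10 of Cfp and 0 of C1ra, C1s1 and Cfb.

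**Figure D5:**
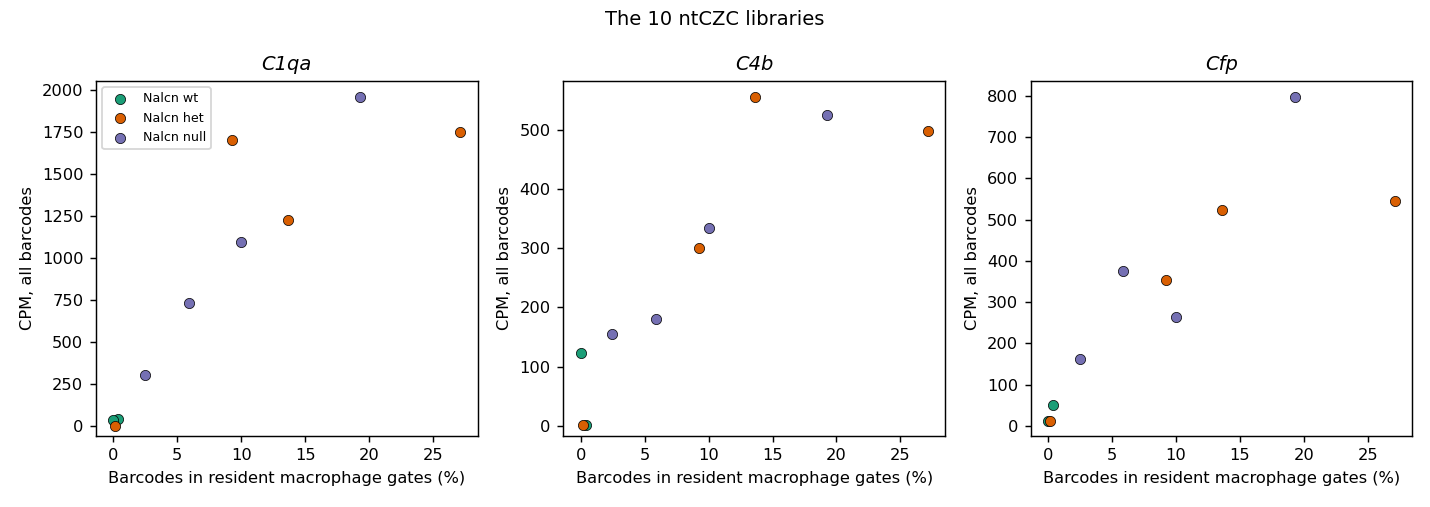
Level of C1qa, C4b and Cfp (CPM over all barcodes) against the percentage of barcodes in the resident macrophage gates, with a point per ntCZC library coloured by genotype. Both wt libraries and het replicate 4 sit at the left edge with C1qa at 0.769 to 39.8 CPM.

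Nonclassical monocyte-like barcodes were the class best filled in both kinds, with at least 20 in 7 ntCZC and 7 tissue libraries. Of 3 members tested 2 were lower in ntCZC and 0 higher, where 34.2% of 4736 genes were called, 16.1% higher and 18.1% lower. C3 in the ntCZC libraries was at 65.7, 62.6 and 32.01 CPM for null, at 62.8, 87.9 and 56.2 for het and at 91.2 for wt. Its mean was 65.5 against 100 CPM in tissue (log2 fold change -0.83, SE 0.20, edgeR adjusted p = 0.0033), where it ran from 67.8 to 132 CPM, so the kinds overlapped. C1qb was at 62.0 against 148 CPM (-2.01, SE 0.70, edgeR adjusted p = 0.0317) with a range of 1.32 to 193 CPM in ntCZC that overlapped the 28.0 to 307 CPM of tissue. Its call was lost with replicate number as a block (-1.88, edgeR adjusted p = 0.0536), by DESeq2, under a stricter gate that asked for 3 markers and without any 1 of ntCZC null replicates 1, 2 and 4 or tissue wt replicates 2 and 4. Cfp was not called (35.3 against 31.1 CPM, log2 fold change -0.30, edgeR adjusted p = 0.5). C1qa (13.3 against 103 CPM) and C1qc (18.8 against 70.4 CPM) were not tested. All 3 chains were found in 0.624% of 962 ntCZC and 3.23% of 959 tissue barcodes of this class. Of 6 other complement genes tested, 1 was called, C5ar1 (-0.82), and lost its call under the stricter gate (-0.63, edgeR adjusted p = 0.187). The hepatocyte marker list was at 0 in the ntCZC barcodes and at 27.1 to 307 CPM in tissue, the fibroblast list at 0 to 1.27 against 10.9 to 46.7 CPM, and the macrophage list at 237 to 447 against 350 to 597 CPM. The part of such transcripts from other cells in these differences was not tested.

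Nalcn genotype was compared within each kind, which asks whether complement levels moved with loss of the channel. No member was called in any of the 9 genotype comparisons. In ntCZC the edgeR calls over 9379 genes were 10 for het against wt (0.107%, 0.0107% higher and 0.096% lower), 0 for null against wt and 0 for null against het, with 741, 360 and 686 genes at an unadjusted p under 0.05 and 106, 14 and 23 calls by DESeq2, no member among them. The C1qa values above gave a log2 fold change of 3.95 for het (SE 1.90, edgeR adjusted p = 0.64) and of 3.06 for null (SE 2.12, adjusted p = 0.983). The C1q chains, C1ra, C4b, Cfb and Cfp did not overlap between null and wt libraries, whereas het overlapped wt for all but Cfb. The share of all genes without overlap was not counted, so this is no result about the members. There were only 2 wt libraries, 1 of them the shallow wt replicate 3. Both were male, whereas null replicates 1, 3 and 4 were female, and the ranges were not adjusted for sex. Without wt replicate 3 the null difference of C1qa was 3.74 (edgeR adjusted p = 1). Without het replicate 4 the het difference of C1qa was 4.47 (edgeR adjusted p = 0.0398), where 48 of 9132 genes were called. Among wt libraries Cfp was 49.9 and 12.4 CPM, among het libraries 354, 522, 545 and 12.7 CPM, and among null libraries 797, 162, 263 and 377 CPM. The share of barcodes in resident macrophage gates differed between the same libraries, as given above, and its part was not tested.

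In tissue over all barcodes, edgeR called 0 of 17863 genes for het (1367 at an unadjusted p under 0.05, 73 by DESeq2) and 2 for null (0.0112%, 1621 at an unadjusted p under 0.05, 342 by DESeq2), with no member among them. C1qa in null was 97.9 and 103 CPM against 106 to 412 in wt, without overlap (log2 fold change -1.21, edgeR adjusted p = 0.622). C1s1 in het was 15.8 and 24.9 CPM against 5.46 to 14.6 in wt, without overlap (log2 fold change 0.74, edgeR adjusted p = 0.718). Within macrophage-like barcodes 0 of 7307 genes were called for het and 0 for null (295 and 357 at an unadjusted p under 0.05, 12 and 10 by DESeq2). C3 was at 34.6 and 40.1 CPM in het and 34.8 to 259 in wt, which overlapped (log2 fold change -1.78, edgeR adjusted p = 1). Within fibroblast-like barcodes 0 of 5717 genes were called for het and 0 for null (453 and 157 at an unadjusted p under 0.05, 5 and 4 by DESeq2). C3 was at 3469 and 4579 CPM in the 2 het libraries and 1414 to 2797 in 4 wt libraries, without overlap (log2 fold change 1.09, SE 0.29, edgeR adjusted p = 0.304). C1qc in the same barcodes was at 0.960 and 10.8 CPM in het and 14.8 to 69.2 in wt, also without overlap (log2 fold change -4.001, edgeR adjusted p = 0.258). The share of all genes without overlap was not counted in tissue either, so these separations are no result about the members. None of these differences passed the threshold as tested. C1qc in fibroblast-like het barcodes passed it without tissue wt replicate 1 (-4.29, edgeR adjusted p = 0.0299), where 46 of 5493 genes were called, and without the filter on low counts (-3.98, edgeR adjusted p = 2.36e-05), where 215 of 17660 were. C3 in macrophage-like het barcodes passed it without that filter (-1.73, edgeR adjusted p = 0.00301), where 150 of 18191 genes were called.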

How the data were processed

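The authors aligned 10x Chromium 3′ reads to mm10 with Cell Ranger (version 3.0.2 per the file headers, 2.1.1 in the submitters' processing notes) and deposited filtered matrices of raw UMI counts, genes by barcodes, without normalization or doublet removal. Their hashtag assignments were not used here. From these counts, barcodes were gated by markers, and counts were summed per library and class. Members, gene lists, markers and comparisons were chosen with earlier results of these data known. Named genes were the 9 members, up to 3 called complement genes of largest change per direction and comparison, and the 3 genes most like each member over classes among genes reaching 10 CPM, except 1 gene that is not reported here. Sums were tested with edgeR 4.0.16 (quasi-likelihood, TMM, filterByExpr, sex as covariate or library as block, Benjamini-Hochberg at 0.05) in R 4.3.3, tested on simulated data. DESeq2 1.42.0, other scaling, filters, gates, blocks and leaving out each library were alternatives. Of 25 replicate pairs, the closest differed by a chi-square of 4.11 per degree of freedom, so none was merged. Python 3.11.15 with numpy 2.4.6, scipy 1.17.1, pandas 2.3.3 and matplotlib 3.10.9 was used otherwise. Differences are log2 fold changes from edgeR, and promoter windows came from RefSeq tables.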

Additional observations from a re-analysis of the deposited data

Results flagged for a closer look

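A total of 8 values stood far from the other libraries of their group, out of 36 groups of 4 or 5 libraries looked at, where chance gives about 1 in 20. Over all barcodes, tissue wt replicate 5 was apart with C4b at 135 CPM and Cfp at 88.2 CPM, and tissue wt replicate 1 with Cfb at 13.5 CPM. In ntCZC, C1s1 was at 1.05 CPM in het replicate 1 and 0.713 CPM in null replicate 1, which was 1 UMI each, and C1ra was at 8.56 CPM in null replicate 1. In macrophage-like barcodes tissue wt replicate 5 was again apart, with C4b at 1108 CPM and Cfp at 682 CPM over 54 barcodes. The 7 peritoneal macrophage markers summed to 1547 CPM in those 54 barcodes, and their part in these levels was not tested.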

How the results depend on the processing

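Of 226 counts of called members under alternatives, 208 stayed within 1.5 times the value reported, and of 947 single-gene values 904 kept direction and call. For nonclassical monocytes (2 members called), DESeq2, the replicate block and the stricter gate each left 1, testing without a filter on low counts gave 6 (4368 of 16908 genes called), and leaving out single libraries gave 1 to 4. Without the filter, macrophage-like het against wt gave 1 (C3; 150 of 18191 genes), fibroblast-like het against wt gave 3 (the C1q chains, lower in het; 215 of 17660 genes), and hepatocyte-like against tubule-like gave 6 (2740 of 16456). Leaving out single libraries gave 0 to 1 in ntCZC het against wt (1, C1qa, without ntCZC het replicate 4, where 48 of 9132 genes were called) and 0 to 2 in fibroblast-like het against wt (2, C1qa and C1qc, without tissue wt replicate 1, where 46 of 5493 were). The stricter gate gave 7 in fibroblast-like against endothelial-like (the C1q chains added; 3914 of 8751 genes), and no value for hepatocyte-like against tubule-like barcodes. C3 in macrophage-like against nonclassical monocyte-like barcodes turned to 0.16 with no replicate block (library) and 0.020 without the barcodes with most UMIs, and ranged from -0.48 (without tissue wt replicate 4) to 0.14 (without tissue het replicate 1) over single libraries left out. C1qa in fibroblast-like against endothelial-like barcodes turned to -0.010 without the filter on low counts and ranged from -0.086 (without tissue null replicate 2; -0.013 without wt replicate 4) to 0.23 over single libraries left out. The cause of these changes was not tested. C1qa between kinds lost its call under the barcode filter (1.64, edgeR adjusted p = 0.062), where Cfb gained one (1.33, edgeR adjusted p = 0.0392). In Kupffer-like barcodes the stricter gate gave 3610, 2759, 2211 and 811 CPM for C1qa, C1qb, C1qc and Cfp, and keeping mixed barcodes gave 2742 for C1qa and 689 for Cfp. The class with the highest mean stayed the same for each gene under every class alternative, except C1s1, for which mesothelial-like led without the barcodes with most UMIs. Deviations of same-numbered libraries of different groups correlated at -0.31 to 0.27, which cannot show whether 2 libraries came from the same mouse. Some ntCZC and tissue libraries of the same number shared genotype, sex and age, such as wt replicate 1 (male, 571 days) and null replicate 2 (male, 552 days). Within groups, sex and age were also shared by tissue wt replicates 1 and 2 (male, 571 days). The same held for tissue het replicates 1 and 2 and for ntCZC het replicates 2 and 4 (all male, 551 days). Whether such libraries came from 1 mouse is not known, and n would then count that mouse more than once. The replicate block changed the calls of no comparison's members but C1qb in monocytes. Only ntCZC null against wt had a median log2 change over all genes above 0.1 in size (0.12). Low counts of Cfb, C1s1 in blood and C1q in non-macrophage classes limit what could be seen there.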

Other observations

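The other complement genes were spread over further cell sources in tissue, and those named here were chosen after their values were seen. Of the other classical pathway genes, C2 was at 541 ± 121 CPM (SD, n = 6) in mesothelial-like barcodes and Serping1, the C1 inhibitor, was at 1525 ± 236 CPM (SD, n = 6) there and 1489 ± 361 CPM (SD, n = 8) in fibroblast-like barcodes. Hc, the mouse C5 gene, was at 929 ± 341 CPM (SD, n = 5) in alveolar type 2-like barcodes, the surfactant cells of the lung. Masp1, a protease of the lectin pathway, was at 155 ± 41.2 CPM (SD, n = 7) in liver sinusoidal endothelial-like barcodes, which also held the membrane regulators Cd55 at 534 ± 134 CPM and Cd59a at 317 ± 76.8 CPM. Fcna, ficolin A, was at 1209 ± 24.4 CPM (SD, n = 2) in Kupffer-like barcodes.

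Regulators in the male tract and receptors of immune cells had still other sources. Clu was at 9769 ± 5284 CPM and C4bp at 760 ± 241 CPM in epididymal epithelial-like barcodes. C5ar1 was at 466 ± 218 CPM in neutrophil-like barcodes and Cr2, a receptor for C3 fragments, at 76.8 ± 31.1 CPM in B cell-like barcodes.

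The pair of tissue libraries without a group had C1qa at 254 CPM (male) and 103 CPM (female) over all barcodes, C3 at 279 and 192 CPM, and C1s1 at 22.7 and 20.9 CPM.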
